A study of Mus musculus with 6 samples.

Results

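Intergenic circular RNAs (circRNAs) are rings whose back-splice junction falls outside every gene of the annotation used to sort them, so that no host gene is named for them. They were taken as all rows of the deposited circRNA table in the class intergenic, which held 658 of 10652 circRNAs (6.18%). The same 658 rows were those with no host identifier, and the class uses no measured value. The rest of the table held 9524 exonic and 470 intronic circRNAs. Hippocampus from male C57BL/6J mice, 8 to 10 weeks old when obtained, was profiled in 3 Control libraries and 3 from animals put through chronic unpredictable stress (CUS). The CUS mice met randomly ordered mild stressors 2 to 3 times a day for 4 weeks, and the Control mice were the unstressed comparison. Nothing in the labels says whether a library holds 1 mouse or a pool, and p-values here refer only to the spread among these libraries, which may be technical. RNA was selected for poly(A) in 2 rounds, per the labels' protocols, which works against rings because they have no poly(A) tail.

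A circRNA forms when a downstream splice donor is joined to an upstream splice acceptor. In brain most rings come from exons of long neuronal genes, and rings are stable because exonucleases find no free end. An intergenic ring can come from exons that the annotation lacked, from an unannotated stretch next to a known gene, or from alignments that only look like a back-splice. The class therefore says where the annotation ends and not how a ring was made.

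The table was used without coordinates or sequences of the circRNAs, so no member is placed on the genome and no sequence is shown. Members are named by their identifier. Levels are 10 to the deposited value, with 0 kept at 0, and a member listed at 0 in a library is not shown to be absent there. The number of reads behind a level is unknown, and levels are not per length, since no circRNA length was used here. Comparisons between circRNAs are therefore comparisons of deposited levels. Within each library all low levels were whole multiples of 1 step, and the inverse of that step is called relative depth. Set to 100% in the deepest library, Control replicate 1, it was 95.8% and 90.8% for the other two Control libraries and 81.9%, 89.8% and 88.8% for CUS replicates 1 to 3. All 10 neuronal genes listed to check the tissue label hosted a circRNA, while none of 6 choroid plexus and 6 striatal marker genes did.

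Fewer intergenic circRNAs were above 0 in each CUS library than in any Control library. Control replicates 1 to 3 held 244, 248 and 248, and CUS replicates 1 to 3 held 201, 205 and 223. The groups did not overlap, the Control mean being 247 ± 2.31 and the CUS mean 210 ± 11.7 (SD, n = 3 each). The exact two-sided permutation test gave p = 0.1, the smallest value that 3 against 3 allows, and 0.25 adjusted over 5 tests. All circRNAs together moved the same way, from 4606, 4526 and 4329 in Control to 3991, 4238 and 4273 in CUS, as did relative depth, and the part of depth in the lower intergenic number was not tested.

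As a share of all circRNAs above 0, intergenic rows made up 5.30%, 5.48% and 5.73% in Control and 5.04%, 4.84% and 5.22% in CUS. These shares did not overlap either, although CUS replicate 3 came close to Control replicate 1. The means were 5.50% ± 0.217 and 5.03% ± 0.191 (SD, n = 3 each; exact permutation p = 0.1, adjusted 0.25). Counting only levels of at least 100 in every library, a floor chosen after seeing the data, left 226, 229 and 226 intergenic circRNAs in Control and 193, 190 and 201 in CUS. Shares at that floor were 5.40% to 5.65% in Control and 4.86% to 5.16% in CUS.

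**Figure D1:**
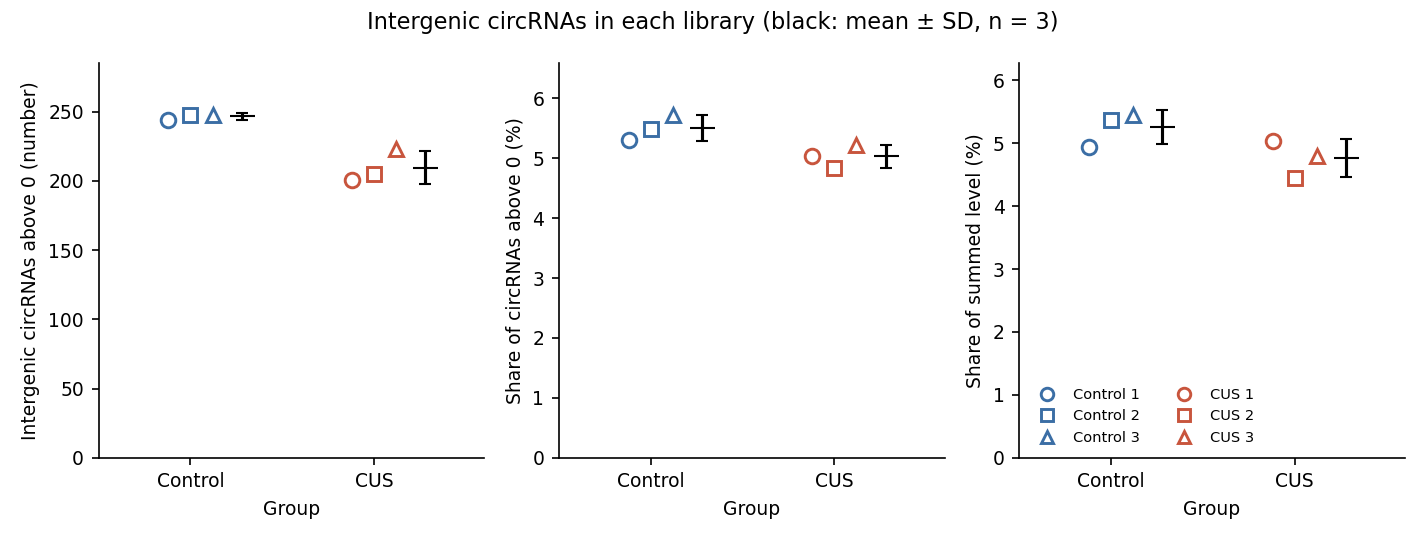
Number of intergenic circRNAs above 0, their share of all circRNAs above 0 and their share of the summed level, by library. Open symbols are the 3 Control and 3 CUS libraries and black bars the mean ± SD; the number runs from 244 to 248 in Control and from 201 to 223 in CUS, while the level shares overlap.

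The summed intergenic level was 100267, 110105 and 110860 (Control) and 100900, 90348 and 95580.0 (CUS). CUS replicate 1 lay above Control replicate 1, so the groups overlapped. They did not overlap with 1 row kept of near-equal neighbours (exact permutation p = 0.1). Sums in library steps did not overlap either (exact permutation p = 0.1). Dividing by the step brings in relative depth, however, which was itself lower in every CUS library than in any Control library. Means were 107077 ± 5910.3 and 95609 ± 5276 (SD, n = 3 each; exact permutation p = 0.2). The class held 4.94%, 5.37% and 5.46% of all circRNA level in Control and 5.04%, 4.44% and 4.80% in CUS, which also overlapped (p = 0.2, exact permutation test). The median level of a member above 0 was 304, 335 and 319 (Control) and 330.2, 336 and 304 (CUS) (exact permutation p = 0.7). The medians overlapped between groups, so the groups separated by the number of members above 0 but not by their typical level.

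Intergenic circRNAs were spread over fewer libraries than exonic ones in these data, although the test over libraries could not pass on its own after adjustment. Of the 658, 330 (50.2%) were above 0 in 1 library only, 151 in 2, 67 in 3, 43 in 4, 38 in 5 and 29 (4.41%) in all 6. Among exonic circRNAs 34.1% were above 0 in 1 library only and 8.07% in all 6. Intronic circRNAs were the most scattered class, with 74.3% in 1 library and 1.28% in all 6. A library held 30.5% to 37.7% of the intergenic rows and 38.5% to 44.4% of the exonic rows. The intergenic share was lower in 6 of 6 libraries, with a mean difference of -7.17 percentage points ± 2.03 (SD, n = 6). The exact paired permutation test over libraries gave the smallest p that 6 libraries allow, which was 0.125 when adjusted over the 4 comparisons with exonic rows. With the other comparisons at higher p, no lower adjusted value was possible. The adjusted threshold of 0.05 was therefore not met and could not be, so it does not decide on this difference.

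**Figure D2:**
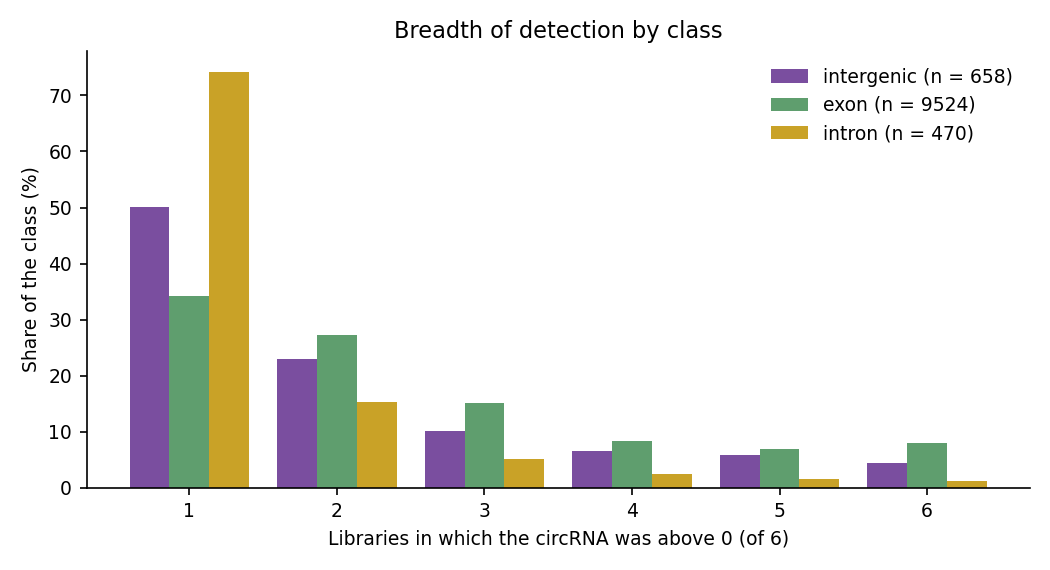
Share of intergenic (658), exonic (9524) and intronic (470) circRNAs by the number of libraries, of 6, in which they were above 0. Bars start at 0; 50.2% of intergenic circRNAs were above 0 in 1 library only, between exonic (34.1%) and intronic (74.3%) circRNAs.

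Once above 0, the median levels of intergenic and exonic circRNAs lay close together. The exonic medians were 297, 298 and 311 (Control) and 345, 320.0 and 315 (CUS). The intergenic median was higher than the exonic one in 4 libraries and lower in 2, with a mean log2 difference of 0.03 ± 0.09 (SD, n = 6; exact paired permutation p = 0.4375). Among circRNAs above 0 in 1 library only, the difference was 0.01 ± 0.13 (p = 0.875, exact permutation). Among those above 0 in 2 or more libraries it was -0.10 ± 0.12, lower in 5 of 6 libraries (p = 0.09375, exact permutation, adjusted 0.1875). Over single libraries that last difference ran from -0.23 to 0.11 on the log2 scale. Among circRNAs above 0 in all 6 libraries the direction was the opposite. The median of their mean levels was 936 over 29 intergenic and 733 over 769 exonic circRNAs, which was not tested.

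Members seen in 1 library carried 24.9% of the intergenic level and members seen in all 6 carried 28.9%. In exonic circRNAs those shares were 13.2% and 38.0%. In each library, members found there alone had a higher median level than members above 0 in 2 or more libraries. Those medians ran from 381 to 584 against 256 to 308. Exonic circRNAs went the same way, at 403 to 494 against 280 to 327. Within a library, 18.4% to 29.9% of the intergenic circRNAs above 0 were found nowhere else, the least in CUS replicate 1 and the most in Control replicate 1. The exonic range was 13.2% to 14.1%. Of the intergenic circRNAs of a Control library, 41.9% to 46.0% were also above 0 in another Control library and 32.8% to 42.7% in a CUS library. Of those of a CUS library, 38.1% to 42.8% were above 0 in another CUS library and 39.0% to 49.3% in a Control library. The direction thus depended on which group the share was taken from, CUS libraries holding fewer rings, and the differences were not tested. For exonic circRNAs the median share was 52.6% within Control and 49.8% within CUS, against 42.6% and 42.0% for intergenic ones.

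The most abundant rings of the table were not intergenic. The highest intergenic mean ranked 50 of 10652, at 2158, against 7588.5 for the highest exonic circRNA. A mean over 1000 was reached by 14 intergenic circRNAs (2.13%) and 248 exonic ones (2.60%), and a mean over 500 by 32 (4.86%) and 716 (7.52%). The 10 most abundant members made up 15.5% of the class level, and each of them was above 0 in all 6 libraries.

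mmu_circRNA009373 led the class. It gave 2359, 1169.8 and 1165 in the Control libraries and 4758, 2060.2 and 1435 in the CUS libraries. CUS replicate 1 stood at the top and the groups overlapped, with a log2 difference of 0.69 (SE 0.55; limma adjusted p = 0.872). That difference was 0.21 without CUS replicate 1 and 1.06 without CUS replicate 3. mmu_circRNA001222 followed at 929, 2892 and 1449 (Control) and 3656, 1345 and 796 (CUS). Its levels ranged as widely within each group as between them. mmu_circRNA008548 was nearly even in Control, at 1547, 1566 and 1511, and at 1669, 1132 and 3544 in CUS, where replicate 3 stood apart from the other two.

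mmu_circRNA003632 stood at 2711, 1255 and 1186 without stress and at 1176, 1404 and 2748 with it. One library of each group was high, Control replicate 1 and CUS replicate 3. mmu_circRNA002626 was the steadiest of the 29 members above 0 in all libraries, with a coefficient of variation of 23.4%. It measured 847, 1608 and 1716 (Control) against 1695, 1248 and 1568 (CUS), and only Control replicate 1 was under 1000. mmu_circRNA010844 had Control levels of 1589, 2063 and 1803 and CUS levels of 1055, 842 and 1291. All 3 CUS libraries were below all 3 Control libraries, with means of 1063 ± 225 and 1818 ± 237 (SD, n = 3 each), but the log2 difference of -0.76 (SE 0.56) did not pass (limma adjusted p = 0.872).

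mmu_circRNA004650 gave 1149, 603 and 1013 in the Control libraries and 1164, 1928 and 2381 in the CUS libraries. Each CUS library was above each Control library, by a narrow margin for CUS replicate 1, and the log2 difference was 0.94 (SE 0.61; limma adjusted p = 0.872). mmu_circRNA001224 stood at 664, 2136 and 1159.6 without stress and at 2468, 1019 and 753 with it. mmu_circRNA000804 measured 594, 2491 and 1181 (Control) against 666, 944 and 1639 (CUS). mmu_circRNA002725 had Control levels of 1176, 714 and 1811 and CUS levels of 1385, 1318 and 818. The groups overlapped for these 3 members, and their log2 differences lay between -0.25 and 0.07.

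**Figure D3:**
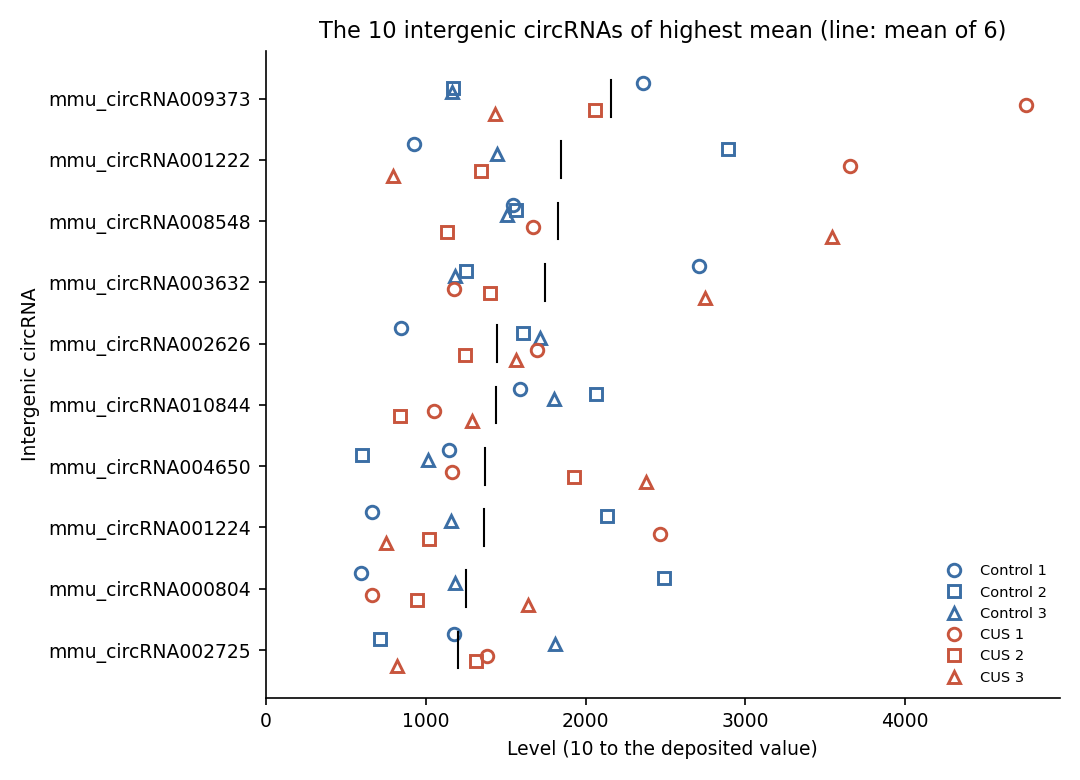
Level of the 10 intergenic circRNAs of highest mean in each library; the horizontal axis is 10 to the deposited value and the black line the mean of 6 libraries. Groups overlap for 8 of the 10; mmu_circRNA010844 is lower in all CUS libraries and mmu_circRNA004650 higher.

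Members above 0 in all 6 libraries had a median spread near that of exonic circRNAs of that breadth. Their coefficient of variation ran from 23.4% to 84.9% with a median of 57.1%, against a median of 55.4% over 769 exonic circRNAs. Next to mmu_circRNA002626, the steadiest were mmu_circRNA010844 (32.1%), mmu_circRNA002725 (33.3%) and mmu_circRNA003194 (42.1%). The last gave 410.4, 595 and 279 in the Control libraries and 542.5, 479 and 139 in the CUS libraries. The most variable were mmu_circRNA008765, at 1309, 146 and 178 (Control) and 1223, 175 and 845 (CUS), and mmu_circRNA000638, at 234, 466 and 409.6 (Control) and 1300.2, 239 and 313 (CUS). The first was high in Control replicate 1 and CUS replicates 1 and 3, and the second in CUS replicate 1 only.

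The stress contrast was tested with limma on log2(level + 45.5) over all circRNAs above 0 in at least 3 libraries. Of the 658 members 177 entered the test and 481 were too sparse. After adjustment none of the 177 was under 0.05, and the background over all 3896 tested circRNAs was 0%. The lowest adjusted p of a member was 0.577 by limma. At an unadjusted p under 0.05 there were 6 members (3.39%), 3 higher and 3 lower in CUS, against a background of 6.01% of all tested circRNAs (2.75% higher and 3.26% lower). The 3 higher and 2 of the 3 lower members were listed at 0 in every library of the other group. They entered the test only through the 3 libraries of the group where they were high. The filter thus partly set this count and its split, and neither is support for a stress difference. With no filter the count was 4. Fitted values were higher in CUS for 80 members (45.2%, background 47.2%) and lower for 97 (54.8%, background 52.8%). Their median log2 difference was -0.31, beside -0.12 over all tested circRNAs. It turned to 0.05 over the 29 members above 0 in all 6 libraries, was -0.055 with 5 times the pseudocount, and was -0.12 without Control replicate 2 and -0.16 without Control replicate 1 or CUS replicate 3. Without Control replicate 3 the number at an unadjusted p under 0.05 fell to 1, and without Control replicate 2 to 3.

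**Figure D4:**
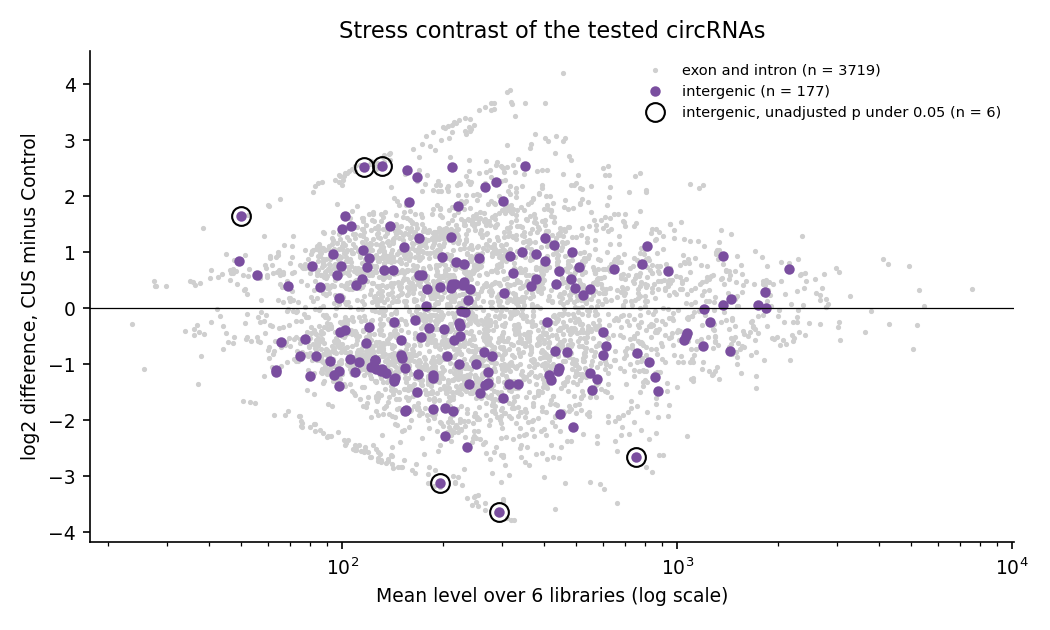
log2 difference between CUS and Control against mean level (log scale) for 177 intergenic (purple) and all other tested circRNAs (grey). Circles mark the 6 intergenic circRNAs at an unadjusted p under 0.05; 0 passed after adjustment.

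Among the members lower in CUS, mmu_circRNA009669 had Control levels of 623, 245 and 891, and every CUS library listed it at 0 (limma adjusted p = 0.577). mmu_circRNA007532, at 249, 691 and 239 in the Control libraries, was likewise listed at 0 in CUS. No fold is given for either, since CUS is listed at 0. They were the 2 members above 0 in all Control and in no CUS libraries (1.13%), where the background was 2.41%. mmu_circRNA001315 stood at 1292, 832 and 1641 without stress and at 307, 446 and 0 with it, a log2 difference of -2.66 (SE 1.00; limma adjusted p = 0.577). All of its Control libraries lay above all of its CUS libraries, and the difference was -1.59 without CUS replicate 3, the library at 0. Its means could not be compared as mean and SD because CUS replicate 3 was at 0.

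The next by p on the lower side did not separate as cleanly. mmu_circRNA002637 measured 155, 472 and 633 (Control) against 0, 0 and 152 (CUS). mmu_circRNA008186 had Control levels of 150, 935 and 1069 and CUS levels of 200.5, 0 and 334. mmu_circRNA008699 gave 608, 1223 and 1657 in the Control libraries and 758, 796 and 114 in the CUS libraries. The last 2 of these overlapped between groups, and mmu_circRNA002637 was separated only narrowly, its lowest Control level being 154.5 and its highest CUS level 152.2. mmu_circRNA005715 stood at 1161, 696 and 1218 without stress and at 0, 1503 and 693 with it, and its log2 difference of -1.48 rested on the 0 of CUS replicate 1, being 0.04 without that library. mmu_circRNA002757 was above 0 in Control replicates 2 and 3, at 1049 and 1479, and in CUS replicate 2, at 406.

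On the higher side 3 members were above 0 in all CUS libraries and listed at 0 in all Control libraries (1.69%, background 1.87%). mmu_circRNA005716 was at 127, 347 and 223 in CUS, mmu_circRNA008502 at 481, 221 and 87.0, and mmu_circRNA008558 at 91.4, 72.6 and 136. Each had a limma adjusted p of 0.577. All 3 were low rings, with means of 116, 131 and 50.0 over the 6 libraries. mmu_circRNA005716 carries the number after mmu_circRNA005715, yet the first was listed at 0 in Control while the second was at 696 to 1218 there.

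More abundant members on the higher side were less even. mmu_circRNA001178 had Control levels of 0, 378 and 0 and CUS levels of 808, 697 and 226. mmu_circRNA002726 gave 232, 751 and 569 in the Control libraries and 1226, 694 and 1414 in the CUS libraries, with a log2 difference of 1.11 (SE 0.77; limma adjusted p = 0.872), which was 0.67 without Control replicate 1. mmu_circRNA002532 stood at 0, 0 and 338 without stress and at 766, 261 and 239 with it. Each of these had a Control library above a CUS library. mmu_circRNA009322 measured 0, 0 and 583 (Control) against 690, 328 and 209 (CUS), mmu_circRNA003157 at 660.4, 336 and 62.5 (CUS) against 0, 267 and 0 (Control), and mmu_circRNA008646 at 295, 0 and 1378 (CUS) against 0, 0 and 53.2 (Control). For those 3 a single library again lay across the other group's range.

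Complete separation of the groups was seen for 11 members with every CUS library above every Control library (6.21%, background 5.78%). It was seen for 5 members in the other direction (2.82%, background 5.08%). The first share was near its background and the second was below it, with no test of either. These counts include the 3 and 2 members listed at 0 in the whole other group, which passed the filter through 1 group only. Of these, mmu_circRNA011000, at 333, 187 and 229 (Control) and 799, 393 and 628 (CUS), mmu_circRNA005982, at 210.04, 269.8 and 117 against 292, 672 and 337, and mmu_circRNA004650 were the 3 higher members above 0 in every library. They are named here after their values were seen.

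Identifier numbers place the members relative to each other. Numbers ran from 1 to 11364 in the order of the host genes: 99.8% of neighbouring circRNAs with a host had hosts on the same chromosome, and 97.5% of those had a host start that was not lower than the one before. The hosts numbered just before and after a member are therefore given below, with the chromosome of the host in GENCODE vM21. No coordinates are given, because the submitters' processing notes name mm9 and that annotation is of another build. This describes the order of identifiers; it assigns no position and no host to a member. Of the numbers up to 11364, 712 were not used in the table, and the class of any circRNA behind them is unknown. Runs can span such gaps. Among the rows present, the 658 members formed 368 runs with no exonic or intronic circRNA between them, 240 of them of a single member. The other 418 members (63.5%) stood next to another intergenic circRNA, in 61 pairs, 55 runs of 3 to 5 and 12 runs of 6 or more. Standing next to a row of the same class was also seen for 99.1% of exonic and 34.7% of intronic circRNAs. Exonic circRNAs made up 89.4% of the table, and these shares were not tested. Of the 368 runs 43 had a summed level above 0 in all 6 libraries, and the 10 of highest mean carried 23.8% of the class level.

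The most abundant run, of 5 members from mmu_circRNA001219 to mmu_circRNA001224, came between circRNAs of Uhrf1bp1l (chromosome 10) and of Anks1b, which encodes a postsynaptic adaptor protein (chromosome 10). Its sum was 2827, 6371 and 3341 (Control) and 6967, 3679 and 2153 (CUS). Highest were Control replicate 2 and CUS replicate 1, so the groups overlapped. mmu_circRNA001222 and mmu_circRNA001224 gave most of it and rose and fell together: mmu_circRNA001224 was at 67.5% to 94.5% of mmu_circRNA001222 in each of the 6 libraries. Whether reads of these 2 rings overlap was not tested.

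A run of 10 members, mmu_circRNA009371 to mmu_circRNA009381, followed the pseudogene Gm10297 (chromosome 7) and came before the long noncoding RNA gene A230006K03Rik (chromosome 7). It measured 3998, 2441 and 2949.5 (Control) against 5377, 3244 and 3436 (CUS), and mmu_circRNA009373 made up 60.4% of it. The other 9 members were sparse and divided by library. mmu_circRNA009376 and mmu_circRNA009377 were above 0 only in CUS replicates 1 and 3, at 226.99 and 250.1 and at 203 and 228, while mmu_circRNA009371 and mmu_circRNA009374 were above 0 only in Control replicates 1 and 3, at 768 and 407 and at 763 and 418. Members of each pair again had levels close to each other.

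The run from mmu_circRNA000799 to mmu_circRNA000804 lay in number order between Rps6kc1 (chromosome 1) and Flvcr1, a heme exporter gene (chromosome 1). Its sum was 1963, 5073 and 2503 (Control) and 1899, 3634 and 2732 (CUS), highest in replicate 2 of each group. The run of 4 from mmu_circRNA002725 to mmu_circRNA002728 fell between Dip2c (chromosome 13) and Ryr2, a calcium release channel gene (chromosome 13). It had Control levels of 1514, 1465 and 2897 and CUS levels of 3184, 2012 and 2291. Here the first 2 members went different ways by library, with mmu_circRNA002726 at 19.7% of mmu_circRNA002725 in Control replicate 1 and at 173% in CUS replicate 3. mmu_circRNA003632 headed a run of 3 between circRNAs of the cadherin genes Cdh10 (chromosome 15) and Cdh12 (chromosome 15). Its neighbour mmu_circRNA003634 was above 0 in Control replicate 1 only, at 1759.95, the highest level of any member confined to 1 library.

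**Figure D5:**
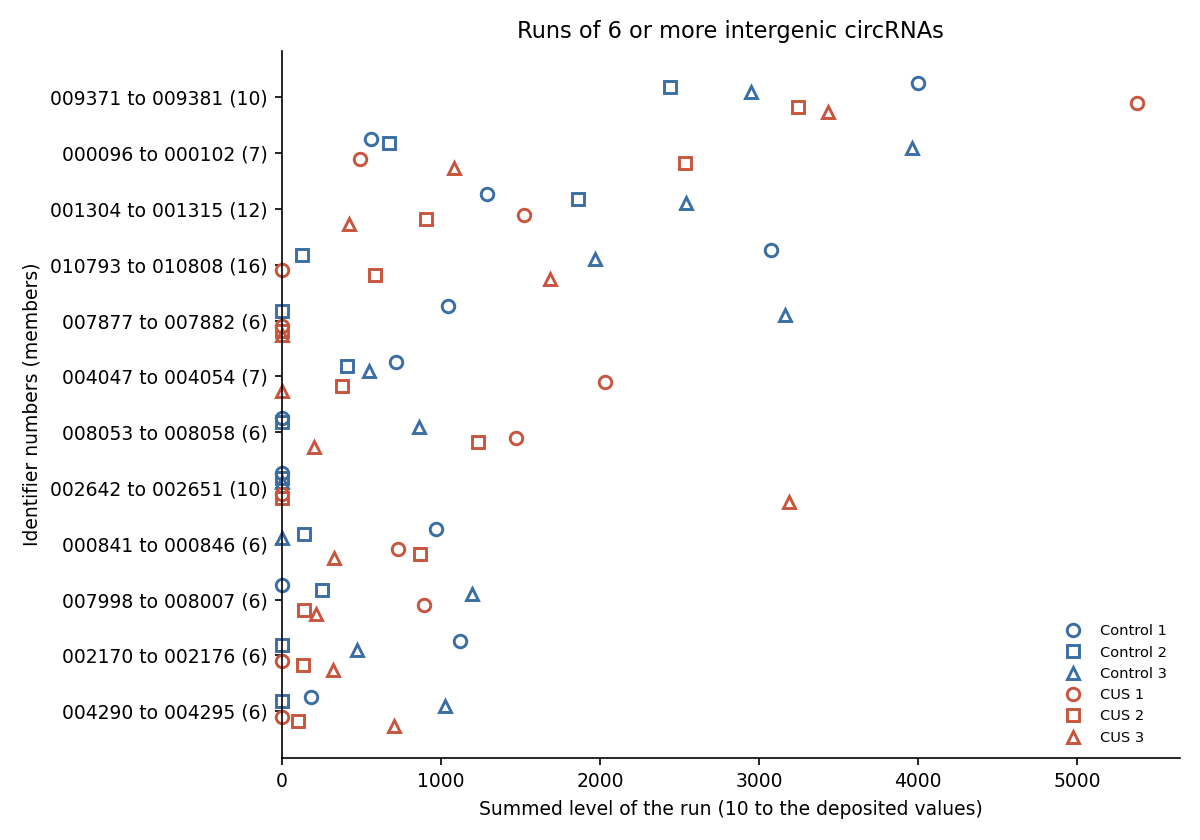
Summed level of the 12 runs of 6 or more intergenic circRNAs with neighbouring identifiers, by library, with the number of members in brackets. The run led by mmu_circRNA009373 has the highest sum of these 12 in 5 of 6 libraries, all but Control replicate 3; the run from mmu_circRNA002642 to mmu_circRNA002651 is above 0 in CUS replicate 3 only.

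Of the 12 longest runs, 1 was above 0 in 1 library only and 1 in 2 libraries only. In the first of them, the 10 members from mmu_circRNA002642 to mmu_circRNA002651, all members were listed at 0 in 5 libraries and summed to 3186 in CUS replicate 3. They came in number order between the small nucleolar RNA gene AF357425 and the long noncoding RNA gene B830012L14Rik, both on chromosome 12. Their levels never rose with the number, from 593 at mmu_circRNA002642 to 97.9 at mmu_circRNA002651, and 2 pairs of neighbours had levels equal to the deposited digits (304 and 201). They were among the 52 members found in CUS replicate 3 alone.

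The longest run, 16 members from mmu_circRNA010793 to mmu_circRNA010808, came between Minar1 and Zic4 on chromosome 9. It gave 3076, 126 and 1968 in the Control libraries and 0, 586 and 1685 in the CUS libraries, and 13 of its members were above 0 in 1 library only. The 12 members from mmu_circRNA001304 to mmu_circRNA001315, between the neuron navigator gene Nav3 and the potassium channel gene Kcnc2 on chromosome 10, summed to 1292, 1861 and 2543 (Control) and 1521, 906 and 419 (CUS). Of these 12, mmu_circRNA001315 alone was above 0 in more than 1 library. The run sum overlapped between groups although mmu_circRNA001315 itself did not.

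Some members had exactly the level of a neighbour. Within 10 numbers of each other, 34 members (5.17%) had the same level as another intergenic circRNA in all 6 libraries, against 120 exonic circRNAs (1.26%), and this difference was not tested. Of the 34, 23 were above 0 in 1 library only. The 6 members from mmu_circRNA007877 to mmu_circRNA007882, between Abcb8 and Nub1 on chromosome 5, repeated 3 levels in order. In Control replicate 1 they were at 128, 174, 220, 128, 174 and 220, in Control replicate 3 at 282, 575, 726, 282, 575 and 726, and they were listed at 0 elsewhere. From mmu_circRNA007998 to mmu_circRNA008003, 5 members were at 239 in Control replicate 3 and 133 in CUS replicate 1. Rows with equal levels were counted as separate members in every count above.

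Pairs with near-equal levels in at least 3 libraries were few. mmu_circRNA003745 and mmu_circRNA003746 were at 316 and 307 in Control replicate 1, 255 and 245 in Control replicate 3 and 336 and 348 in CUS replicate 1. mmu_circRNA006425 and mmu_circRNA006426 were both at 378 in Control replicate 2, at 192 and 207 in Control replicate 3 and at 185 and 201 in CUS replicate 3. Within each pair both members were listed at 0 in the same 3 libraries, and these libraries differed between the pairs.

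In 12 runs the same host stood on both sides of the intergenic members. mmu_circRNA008518 came between 2 circRNAs of Cdk8, a Mediator kinase gene, and stood at 973, 1374 and 1101 without stress and at 451, 648 and 1884 with it. mmu_circRNA008515, 3 numbers before it, measured 1540.3, 1505 and 1048 (Control) against 427, 637 and 2022 (CUS). Outside Control replicate 1 the level of mmu_circRNA008518 was 91.3% to 106% of that of mmu_circRNA008515, and in Control replicate 1 it was 63.2%. Both were low in CUS replicates 1 and 2 and highest in CUS replicate 3.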

How the data were processed

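The authors deposited 1 log10 value per circRNA and library, scaled to a library-specific step before deposit as the values show, with 0 for not listed. Not given in the sources used here are how that linear unit was made, the circRNA caller and the annotation behind the classes. The submitters' processing notes name mm9, StringTie, DESeq and edgeR, with no role. Libraries were poly(A)-selected and carried molecular identifiers, per the labels' protocols; whether these were used in counting is not given.

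Levels were computed as 10 to the value. Group values per library were compared by exact two-sided permutation tests (3 against 3) and classes by exact paired permutation over 6 libraries, adjusted by Benjamini-Hochberg over 5 and 4 tests. The stress contrast was fitted with limma 3.58.1 in R 4.3.3, with a variance trend, on log2(level + 45.5), the pseudocount being the median of the 6 lowest nonzero levels, 1 per library, for circRNAs above 0 in at least 3 libraries, adjusted over all 3896. Fold changes are on that scale, which understates low members. The fit was also run on simulated counts. Those had no spread between libraries beyond counting, unlike these data, so that run does not show the error rate or power here.

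Named members were the 10 of highest mean, the 8 higher and 8 lower in CUS of smallest p among tested members above the median level, those above 0 in all libraries of 1 group and none of the other, the 4 steadiest and 2 most variable of those in all 6 libraries, and near-equal neighbours (within 20%). Runs and other members were chosen after seeing their values. The members and lists were chosen with earlier results of these data known.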

Additional observations from a re-analysis of the deposited data

How the results depend on the processing

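No member passed an adjusted p under 0.05 by limma under any limma setting tried (pseudocount, filter, trend, robust fit, scaling, each library left out, replicate block), and the lowest adjusted p of a named member was 0.329, with 0.2 times the pseudocount. The number at an unadjusted p under 0.05, 6 in the report, was 0 for members above 0 in all 6 libraries, where fewer were tested, 11 without a variance trend and 1 to 7 with 1 library left out. Same-numbered libraries did not deviate together (correlations of -0.011, -0.025 and -0.020), and the fit with the replicate block gave 6. The CUS minus Control difference in median level, 4.06 in the report, was -3.78 for levels of at least 2 times the lowest. It was -15.1 for levels of at least 100 (chosen after seeing the data) and -3.63 to 13.7 with 1 library left out. The cause of these changes was not tested. In library steps the difference was -9.99, which counts steps and cannot be set beside the values in level units. The step was larger in each CUS library (2.69 to 2.95) than in any Control library (2.41 to 2.66), and dividing by it lowers CUS relative to Control. The log2 difference from exonic circRNAs among those in 1 library was -0.023 to 0.15 with 1 library left out. Among 34 named members tested, 24 kept their direction in every setting in which they could be fitted. Members above 0 in 3 libraries drop out of some left-out fits and of the fit on members above 0 in all 6 libraries. Many named members were picked from these same data for a small p in 1 direction. Those listed at 0 in all libraries of 1 group could hardly reverse. The count of kept directions is therefore partly fixed by the choice of members and is no measure of robustness. mmu_circRNA001222 was at -0.035 with quantile normalization and -0.13 in library steps, mmu_circRNA003632 at -0.079 and mmu_circRNA001224 at -0.067 in library steps. With 1 library left out, the ranges were -0.59 to 0.48 for mmu_circRNA001222, -0.42 to 0.48 for mmu_circRNA001224, -0.15 to 0.34 for mmu_circRNA002626, -0.34 to 0.31 for mmu_circRNA002725, -0.30 to 0.43 for mmu_circRNA003632, -0.74 to 0.26 for mmu_circRNA000804, -2.51 to 0.038 for mmu_circRNA005715, -0.33 to 0.79 for mmu_circRNA000638, -0.16 to 0.64 for mmu_circRNA008548 and -0.55 to 0.28 for mmu_circRNA003194. The lower share of intergenic rows held its direction, at -7.80 to -6.59 percentage points with 1 library left out, where 0.0625 is the smallest exact permutation p. Read counts were not used here, and relative depth was taken only from the steps of the deposited values. A level of 0 therefore cannot be told apart from a level under the detection limit.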

Other observations

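There were 6 members above 1000 in the only library where they were above 0. mmu_circRNA003634 was at 1759.95 in Control replicate 1, mmu_circRNA006463 at 1230.3 in Control replicate 2 and mmu_circRNA005799 at 1048 in Control replicate 3. mmu_circRNA003525 and mmu_circRNA001422 were at 1490.1 and 1162 in CUS replicate 2, and mmu_circRNA007500 at 1008 in CUS replicate 1. CUS replicate 3 held no such member. Among exonic circRNAs 82 of 9524 were of this kind.

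By number order 644 members came between hosts of 1 chromosome. Their share of the circRNAs placed that way ran, over the autosomes, from 2.36% for chromosome 19 (7 of 296) to 8.80% for chromosome 6 (46 of 523), and was 3.32% for the X chromosome (10 of 301). These shares follow identifiers and were not tested.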
